A study of Mus musculus with 14 samples.

Results

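The genes described here are 8 factors that act in antibody class switch recombination: Batf, Exosc3, Ung, Apex1, Msh6, Trp53bp1, Xrcc5 and Xrcc6. They are the rows of the deposited gene table whose symbol equals 1 of these 8 names, out of 22295 rows, and all 8 were among the 9627 genes expressed highly enough to be tested. Their RNA was compared in splenic B cells of 3 kinds of mice after 96 h in culture with lipopolysaccharide (LPS, 5 µg/ml) and interleukin-4 (IL-4, 10 ng/ml), which all groups received. miR155_KO cells came from mice labelled miR-155[-/-], which lack the microRNA miR-155 (5 libraries). PU1_KI cells came from knock-in mice, both of whose PU.1 alleles carry a mutated miR-155 target site in the transcript while miR-155 itself is left intact (5 libraries). WT cells came from wild-type mice (4 libraries). Both alleles are carried in the germline, so every cell of the animal has them, and no source used here gives the age or sex of the mice. The miR-155 transcript was not analysed here. B cells were enriched by negative selection, and the design text calls the replicates biological.

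Class switch recombination exchanges the constant region of the antibody heavy chain. Cytosines in transcribed switch regions are deaminated to uracil; base excision and mismatch repair turn the uracils into DNA breaks, and end joining connects the broken switch regions. LPS with IL-4 is a standard way to make mouse B cells switch in culture, and miR-155 is induced when B cells are activated.

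The sequence of miR-155 is shown because both mutant genotypes concern it. Capitals mark the seed (bases 2 to 8), and the sequence is from RefSeq on GRCm38.p6.
mmu-miR-155-5p: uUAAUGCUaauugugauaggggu
No 3' UTR of the 8 factors in GENCODE M21 (GRCm38) held a match to the seed (0 of 8), against 790 of 8606 tested genes with an annotated 3' UTR (9.18%), taking the longest 3' UTR of each gene.

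The libraries held between 31.4 and 52.3 M reads (M for 1e6), as recovered from the step size of low values, so 1 RPKM (read per kilobase of gene and per 1e6 reads) on a gene of 2 kb stood for 62.7 to 104.7 reads. All 8 B cell markers passed the filter, with a summed level of 5041 to 5464 RPKM in miR155_KO, 5351 to 6185 RPKM in PU1_KI and 4880 to 5555 RPKM in WT, most of it Cd74. In miR155_KO against WT 4 of the 8 were called lower and none higher: Ms4a1 averaged 84.9 RPKM in miR155_KO, 118.5 RPKM in PU1_KI and 143.9 RPKM in WT, Cd79a 336 RPKM in miR155_KO, 491 RPKM in PU1_KI and 476 RPKM in WT, and Cd22 and Blnk were the others. In PU1_KI against WT 3 were called higher and 1, Ms4a1, lower. The defining markers of neutrophils, NK cells and erythroid cells were at or near 0. Of the 8 T cell markers 2 passed the filter; their list summed to 75.3 to 84.1 RPKM in miR155_KO, 41.9 to 50.5 RPKM in PU1_KI and 51.7 to 55.3 RPKM in WT, most of it Thy1. Below the filter, Cd3d, Cd3e, Cd3g and Cd4 averaged under 0.05 RPKM in each genotype. Cd8a averaged 0.645 RPKM in miR155_KO, 0.0636 RPKM in PU1_KI and 0.0307 RPKM in WT, and Cd5 1.03 RPKM in miR155_KO, 0.433 RPKM in PU1_KI and 0.231 RPKM in WT. The macrophage list summed to 6.10 to 6.76 RPKM in miR155_KO, 10.6 to 12.2 RPKM in PU1_KI and 6.58 to 7.66 RPKM in WT, most of it Cd68 (5.08 RPKM in miR155_KO, 10.9 RPKM in PU1_KI and 6.80 RPKM in WT). Other macrophage markers, below the filter, stood in another order: Emr1 averaged 0.738 RPKM in miR155_KO, 0.253 RPKM in PU1_KI and 0.200 RPKM in WT, and Itgam 0.331 RPKM in miR155_KO, 0.126 RPKM in PU1_KI and 0.0499 RPKM in WT. The dendritic cell list summed to 23.7 to 30.4 RPKM in miR155_KO, 25.4 to 32.1 RPKM in PU1_KI and 15.8 to 20.1 RPKM in WT. The part of these cell types in the results was not tested. The plasma cell list summed to 267 to 406 RPKM in miR155_KO, 224 to 344 RPKM in PU1_KI and 417 to 501 RPKM in WT, with Igj and Xbp1 at the highest levels. Its genes did not all move 1 way. Of the 5 tested, 3 were called lower and 1 higher in miR155_KO against WT. In PU1_KI against WT 2 were called lower and 1 higher. The gene called higher was Irf4 in both. In bulk RNA, fewer cells of a type and less RNA per cell cannot be told apart. No source used here gives the sequencing pool or the culture day, which cannot be told apart from genotype.

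In miR155_KO against WT all 8 factors passed the test, 6 of them lower and 2 higher. In PU1_KI against WT 3 passed. All tests are limma on log2(RPKM + 0.5) with a Benjamini-Hochberg adjusted p under 0.05 over all 9627 tested genes, and fold changes are on that scale. The count of 8 of 8 in miR155_KO against WT stands beside 62.5% of all tested genes called (27.2% higher and 35.3% lower). The 3 of 8 in PU1_KI against WT, 2 higher and 1 lower, stand beside 27.7% (23.7% higher and 4.03% lower). In miR155_KO against PU1_KI 6 of 8 were called, all lower, beside 64.3% of all tested genes (17.9% higher and 46.4% lower). With so many genes called, nothing particular to the 8 factors is read from these counts, and the sizes for each gene carry the description. The comparisons with WT share the WT libraries.

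**Figure D1:**
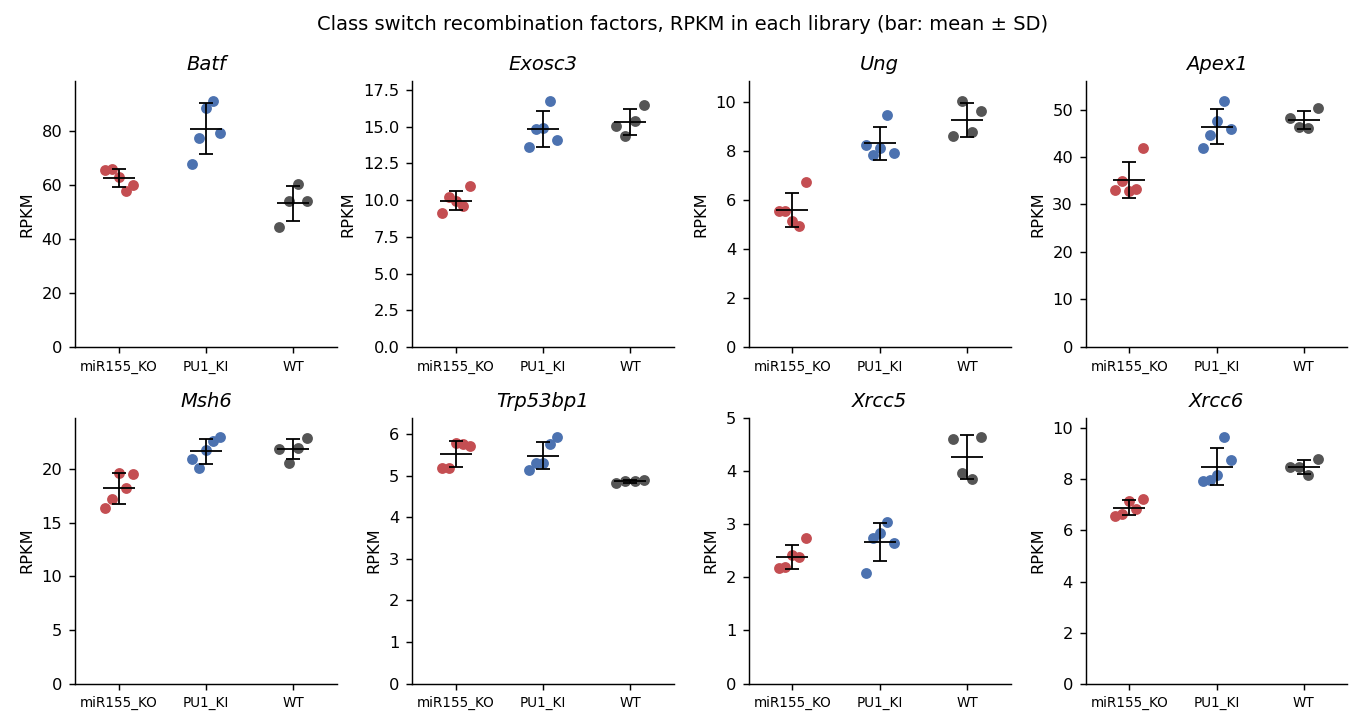
RPKM of the 8 factors (vertical axes, each starting at 0) in each library of miR155_KO, PU1_KI and WT; points are libraries and bars the mean ± SD. Ung and Exosc3 were low in all 5 miR155_KO libraries, and Xrcc5 was low in all 10 libraries of both mutants.

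In WT the order of levels was Batf (53.2 ± 6.6 RPKM, SD, n = 4), Apex1 (47.8 ± 2.0), Msh6 (21.9 ± 0.95), Exosc3 (15.3 ± 0.88), Ung (9.25 ± 0.70), Xrcc6 (8.48 ± 0.27), Trp53bp1 (4.86 ± 0.037) and Xrcc5 (4.26 ± 0.42). The WT ranges of Batf and Apex1 overlapped, as did those of Ung and Xrcc6, so these neighbours are not ordered beyond their spread. The other neighbours had separate ranges. In miR155_KO the means of Xrcc6 (6.89 ± 0.30 RPKM, n = 5) and Ung (5.58 ± 0.69 RPKM) stood in the other order, with overlapping ranges.

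Batf is a transcription factor that B cells need for switch-region transcripts. It measured 65.5, 65.7, 63.1, 57.9 and 60.1 RPKM in the miR155_KO libraries, 67.6, 77.5, 88.4, 91.1 and 79.4 RPKM in PU1_KI and 44.3, 54.0, 60.2 and 54.1 RPKM in WT. Every PU1_KI library stood above every library of both other genotypes, while miR155_KO and WT overlapped. Batf rose in PU1_KI against WT by 0.60 ± 0.09 on the log2 scale (SE; adjusted p 3.76e-05, limma), and it was lower in miR155_KO than in PU1_KI (-0.36 ± 0.08, adjusted p 0.000820); under the 3 other scalings that difference was -0.25 to -0.15 (adjusted p 0.00309 to 0.0441). Its rise in miR155_KO against WT was 0.24 ± 0.09 (adjusted p 0.0237). It was 0.37 with quantile normalization, and it missed the threshold without WT replicate 1 (0.15, adjusted p 0.112), miR155_KO replicate 1 (0.22, adjusted p 0.0526) or miR155_KO replicate 2 (0.22, adjusted p 0.0527).

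Exosc3 is a core subunit of the RNA exosome, which takes part in deamination of both DNA strands of transcribed switch regions. The miR155_KO libraries had 9.14, 10.2, 9.94, 9.62 and 10.95 RPKM, the PU1_KI libraries 13.6, 14.8, 14.9, 16.8 and 14.1 RPKM and the WT libraries 15.0, 14.4, 15.4 and 16.5 RPKM. All miR155_KO values were below all others, and PU1_KI and WT overlapped. Exosc3 fell by 0.60 ± 0.07 in miR155_KO against WT (adjusted p 2.10e-07, limma) and by 0.55 ± 0.06 against PU1_KI (adjusted p 3.43e-07). PU1_KI against WT gave -0.05 (95% interval -0.18 to 0.09, adjusted p 0.63), but Exosc3 was called lower there under each of the 3 other scalings (-0.14 to -0.13, adjusted p 0.0206 to 0.0260).

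Ung, the uracil-DNA glycosylase that removes uracil from deaminated DNA, measured 5.54, 5.56, 5.14, 4.94 and 6.71 RPKM in miR155_KO, 8.23, 7.84, 8.10, 9.47 and 7.89 RPKM in PU1_KI and 8.58, 10.0, 8.75 and 9.64 RPKM in WT. The 5 miR155_KO values were the lowest of all 14. Ung fell by 0.69 ± 0.08 in miR155_KO against WT (adjusted p 3.24e-07, limma) and by 0.54 ± 0.07 against PU1_KI (adjusted p 3.72e-06). In PU1_KI against WT the difference was -0.15 ± 0.08 (adjusted p 0.167), with overlapping libraries. Under each of the 3 other scalings it was called lower (-0.23, adjusted p 0.0103 to 0.0133).

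Apex1 encodes the endonuclease that cuts the site left by Ung. Its levels were 33.0, 35.1, 32.8, 33.3 and 41.9 RPKM in miR155_KO, 41.8, 44.7, 47.6, 51.9 and 45.9 RPKM in PU1_KI and 48.1, 46.4, 46.2 and 50.4 RPKM in WT. The miR155_KO values were below all WT values; replicate 5, the highest of its genotype, just overlapped PU1_KI. Apex1 fell by 0.44 ± 0.07 in miR155_KO against WT (adjusted p 3.61e-05, limma) and by 0.39 ± 0.07 against PU1_KI (adjusted p 6.76e-05), or by 0.19 with quantile normalization. PU1_KI against WT gave -0.05 ± 0.07 (adjusted p 0.684), and -0.13 with immunoglobulin genes left out, where it was called (adjusted p 0.0480).

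Msh6 is a subunit of the MutS alpha complex, which recognises the U:G mismatch. Libraries of miR155_KO had 16.4, 17.3, 19.7, 18.3 and 19.5 RPKM, those of PU1_KI 20.9, 20.1, 21.8, 22.6 and 23.0 RPKM and those of WT 21.9, 20.6, 22.0 and 22.9 RPKM. The miR155_KO range lay below both other ranges, but only just. Msh6 fell by 0.26 ± 0.06 in miR155_KO against WT (adjusted p 0.00133, limma) and by 0.25 ± 0.06 against PU1_KI (adjusted p 0.00123). Quantile normalization made the first -0.16 and took the second call away (-0.06, adjusted p 0.239); the other scalings gave -0.14 and -0.12 against PU1_KI.

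Trp53bp1 encodes 53BP1, which protects broken ends from resection. It measured 5.17, 5.18, 5.79, 5.77 and 5.71 RPKM in miR155_KO, 5.13, 5.30, 5.31, 5.75 and 5.92 RPKM in PU1_KI and 4.81, 4.86, 4.88 and 4.90 RPKM in WT. Both mutants stood above WT in every library, and the mutants overlapped each other. The rise in miR155_KO against WT was 0.17 ± 0.06 (adjusted p 0.0140, limma). That in PU1_KI against WT was 0.16 ± 0.06 (adjusted p 0.0415); it missed the threshold under each other scaling tried (0.06 to 0.07), with only the 2 genotypes in the fit (adjusted p 0.0531), without any 1 of the 4 WT libraries (adjusted p 0.0623 to 0.0946) and without PU1_KI replicate 2, 3, 4 or 5 (adjusted p 0.0502 to 0.113).

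Xrcc5 (Ku80) and Xrcc6 (Ku70) form the Ku heterodimer that binds broken ends and starts end joining. Xrcc5 measured 2.18, 2.19, 2.42, 2.39 and 2.74 RPKM in miR155_KO, 2.08, 2.75, 2.83, 3.04 and 2.65 RPKM in PU1_KI and 4.61, 3.96, 3.85 and 4.63 RPKM in WT. All 10 mutant libraries were below all 4 WT libraries, and the mutants overlapped. Xrcc5 fell by 0.72 ± 0.08 in miR155_KO against WT (adjusted p 5.26e-07, limma) and by 0.59 ± 0.08 in PU1_KI against WT (adjusted p 3.15e-05). Between miR155_KO and PU1_KI the difference was -0.13 (95% interval -0.30 to 0.03, adjusted p 0.153), and without PU1_KI replicate 1 it was -0.20 (adjusted p 0.0164).

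Xrcc6 had 6.57, 6.66, 7.17, 6.83 and 7.25 RPKM in miR155_KO, 7.94, 7.96, 8.17, 9.64 and 8.75 RPKM in PU1_KI and 8.48, 8.49, 8.16 and 8.81 RPKM in WT. Only the miR155_KO libraries stood apart, below all others. The fall was 0.28 in both comparisons of miR155_KO, with an SE of 0.06 each (adjusted p 0.000405 against WT and 0.000253 against PU1_KI, limma), and under the 3 other scalings the difference from PU1_KI was -0.18 to -0.16. PU1_KI against WT gave 0.00 (95% interval -0.13 to 0.12).

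**Figure D2:**
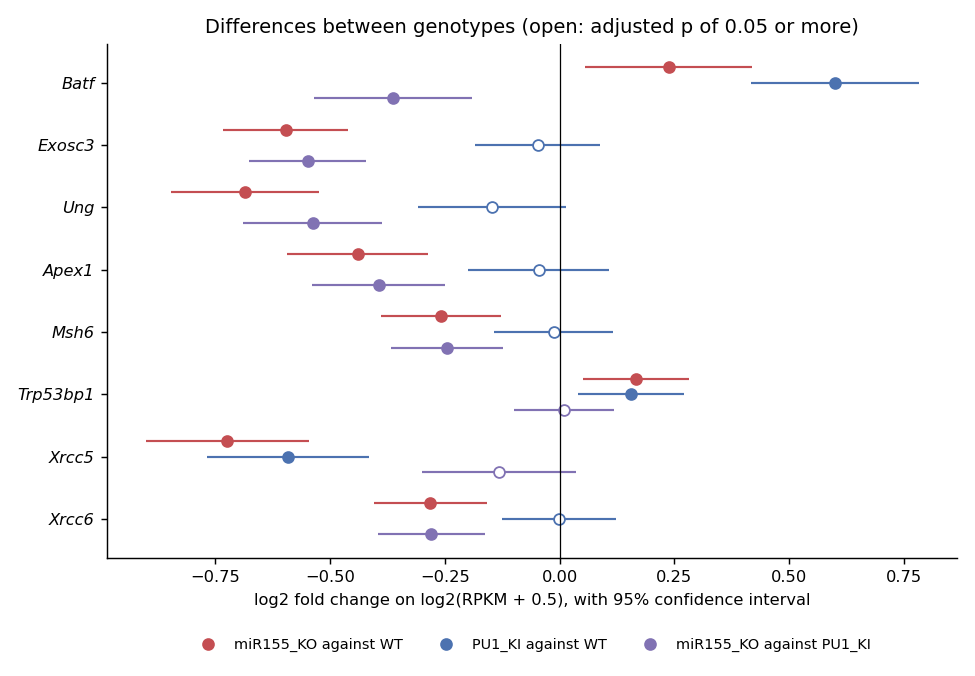
Log2 fold change of each factor in 3 comparisons (horizontal axis, with 95% confidence intervals); filled points passed an adjusted p of 0.05 and open points did not. Batf was highest in PU1_KI, Xrcc5 fell in both mutants, and Exosc3, Ung, Apex1, Msh6 and Xrcc6 were lower in miR155_KO than in WT and than in PU1_KI (Msh6 against PU1_KI was not called with quantile normalization).

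The Ku subunits were also compared as a ratio within each library. It uses the same Xrcc5 and Xrcc6 values as the tests above, so it is not independent of them. The log2 ratio of Xrcc5 to Xrcc6, with 0.5 RPKM added to each, was -1.36 ± 0.06 in miR155_KO (SD, n = 5), -1.51 ± 0.14 in PU1_KI (n = 5) and -0.92 ± 0.10 in WT (n = 4). No mutant library reached the WT range. The ratio fell by 0.44 in miR155_KO against WT and by 0.59 in PU1_KI against WT, each with a two-sided exact permutation p of 0.0159, the smallest that 4 against 5 libraries allow, and 0.0476 after Benjamini-Hochberg adjustment over 6 tests. Between miR155_KO and PU1_KI it differed by 0.15 (exact p 0.0794, adjusted 0.159). The size of the ratio moves with the value added: with 0.1 and with 1 RPKM the differences from WT were -0.52 and -0.37 in miR155_KO and -0.66 and -0.52 in PU1_KI, with the same adjusted p.

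**Figure D3:**
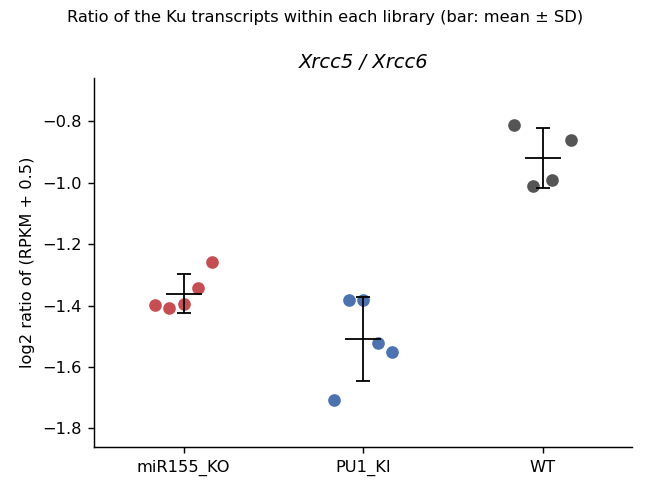
Log2 ratio of Xrcc5 to Xrcc6 in each library (vertical axis), for miR155_KO, PU1_KI and WT; points are libraries and bars the mean ± SD. The ratio was lower in all 10 libraries of both mutants than in the 4 WT libraries.

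Promoters of 4 of the factors are printed as examples, for the Ku pair, which moved unequally, and for Msh6 and Apex1, which with Xrcc6 are the factors that held an E2F match; they were chosen after the matches were seen. Ung and Exosc3, which fell by more in miR155_KO against WT, held none of the E2F letters. Each runs from 250 bases before to 50 bases after the start, from RefSeq on GRCm38.p6, with motif matches in capitals.
Xrcc5 promoter: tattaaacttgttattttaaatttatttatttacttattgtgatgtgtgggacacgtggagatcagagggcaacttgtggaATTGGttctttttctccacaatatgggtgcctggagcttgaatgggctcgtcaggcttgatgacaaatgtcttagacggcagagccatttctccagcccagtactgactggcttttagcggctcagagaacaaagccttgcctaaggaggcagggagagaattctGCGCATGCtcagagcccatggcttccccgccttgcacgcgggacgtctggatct
Xrcc6 promoter: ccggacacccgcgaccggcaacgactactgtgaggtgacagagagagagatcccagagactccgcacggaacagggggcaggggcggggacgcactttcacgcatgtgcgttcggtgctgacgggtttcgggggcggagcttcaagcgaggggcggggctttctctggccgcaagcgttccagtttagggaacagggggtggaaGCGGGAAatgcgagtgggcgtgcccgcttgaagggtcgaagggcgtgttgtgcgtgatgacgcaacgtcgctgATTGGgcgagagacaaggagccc
Msh6 promoter: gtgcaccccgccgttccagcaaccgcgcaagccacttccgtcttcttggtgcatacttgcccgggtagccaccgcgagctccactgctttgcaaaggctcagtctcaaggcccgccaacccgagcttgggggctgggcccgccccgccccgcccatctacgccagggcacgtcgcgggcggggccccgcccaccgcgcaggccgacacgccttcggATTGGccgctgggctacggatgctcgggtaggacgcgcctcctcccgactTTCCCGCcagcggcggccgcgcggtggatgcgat
Apex1 promoter: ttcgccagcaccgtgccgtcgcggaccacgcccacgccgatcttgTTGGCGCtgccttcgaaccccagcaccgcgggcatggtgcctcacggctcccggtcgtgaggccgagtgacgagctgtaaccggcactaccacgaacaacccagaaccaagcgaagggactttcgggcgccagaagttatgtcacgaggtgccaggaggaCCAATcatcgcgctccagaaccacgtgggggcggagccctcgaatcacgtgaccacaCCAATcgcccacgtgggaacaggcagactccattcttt
They lie at chr1:72307171-72307470 (plus strand), chr15:82016119-82016418 (plus), chr17:87974800-87975099 (plus) and chr14:50924699-50924998 (plus). The motifs searched, on both strands, were TTCCCGC and TTGGCGC (E2F), CCGGAAG (ETS), GAGGAAG (PU.1), TGANTCA (AP-1), CCAAT and GCATGCGC (NRF1). TTCCCGC was found in Xrcc6, 46 bases before the start, (on the other strand, so printed as GCGGGAA) and in Msh6, 16 bases after the start, against 4.60% of 32851 promoters of that length. TTGGCGC was found in Apex1, 205 bases before the start (2.45% of promoters), and GCATGCGC in Xrcc5, 4 bases before it (2.71%). CCAAT was found in all 4 printed promoters (37.4% of promoters) and CCGGAAG in those of Exosc3 and Batf (8.86%). GAGGAAG (13.6%) and TGANTCA (7.81%) were in none of the 8. The promoters of Ung and Trp53bp1 held none of the 7 motifs. These are matches of letters only.

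The pathway lists around the factors include the factors themselves and are described by counts, with no test of a list. In miR155_KO against WT 35.3% of all tested genes fell and 27.2% rose, and in PU1_KI against WT 4.03% fell and 23.7% rose; nothing particular to a list is read from its share. Of 25 tested genes for targeting of switch regions and switch transcription, 18 (72%) fell and none rose in miR155_KO against WT, with a median log2 fold change of -0.33 against -0.05 over all tested genes. Within it, 8 of 10 tested exosome subunits fell, among them Exosc2 (-0.82 ± 0.08, adjusted p 9.50e-08) and the nuclease Dis3 (-0.73 ± 0.07, adjusted p 7.31e-08). Rpa2, a subunit of the single-strand binding protein RPA, fell by 0.57 ± 0.06 (adjusted p 3.30e-07). In PU1_KI against WT 2 of the 25 fell, Exosc9 and Exosc7, and none rose; each of the pair missed the threshold without some single libraries (adjusted p 0.0527 to 0.102). Under the 3 other scalings 11 to 13 fell. In miR155_KO against PU1_KI 19 (76%) fell and none rose, beside 46.4% of all tested genes lower and 17.9% higher. Exosc9, 1 of the 19, was not called there under the 3 other scalings (adjusted p 0.36 to 0.97, limma).

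Among 18 base excision repair genes 8 (44.4%) fell and 3 (16.7%) rose in miR155_KO against WT, with Neil1, another glycosylase, at 48.9 ± 2.6 RPKM in miR155_KO against 83.3 ± 5.7 RPKM in WT (-0.76 ± 0.06, adjusted p 3.34e-09, limma). Mbd4, a thymine and uracil glycosylase, rose by 0.37 ± 0.06 (adjusted p 2.15e-05), and the ligase Lig1 fell by 0.44 ± 0.07 (adjusted p 1.99e-05). In PU1_KI against WT 2 rose (Xrcc1 and Mutyh) and none fell, whereas the 3 other scalings gave 1 to 2 that rose and 5 to 6 that fell. Mutyh missed the threshold with quantile normalization (adjusted p 0.0605, limma) and without WT replicate 1 (0.0761) or PU1_KI replicate 3 (0.0621). Of 14 mismatch repair and error-prone polymerase genes 6 (42.9%) fell and 3 (21.4%) rose in miR155_KO against WT: the sliding clamp Pcna fell by 0.76 ± 0.07 (adjusted p 1.57e-08) the MutL subunit Pms2 by 0.46 ± 0.06 (adjusted p 1.28e-06) and the exonuclease Exo1 by 0.69 ± 0.09 (adjusted p 1.42e-06), while the polymerase Polk rose by 0.47 ± 0.07 (adjusted p 1.08e-05). Polh and Poli rose and Msh3 and Pcna fell in PU1_KI against WT. Of these, Poli missed the threshold under each of the 3 other scalings (adjusted p up to 0.150), Pcna without some single libraries (up to 0.0679) and Msh3 without PU1_KI replicate 3 (0.0506). Under each of the 3 other scalings 1 gene rose and 3 fell, Pms2 among them.

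Of 19 genes of the break response 7 (36.8%) rose and 6 (31.6%) fell in miR155_KO against WT. Paxip1, a partner of 53BP1 at breaks, fell by 0.59 ± 0.07 (adjusted p 5.68e-07, limma), while Atmin, a cofactor of the kinase ATM, rose by 0.57 ± 0.07 (adjusted p 1.86e-06) and the kinase Atr by 0.49 ± 0.08 (adjusted p 1.95e-05). Ube2n, a ubiquitin-conjugating enzyme, fell by 0.40 ± 0.06 (adjusted p 1.34e-05). Atmin, Mdc1 and Trp53bp1 rose in PU1_KI against WT, and none fell; under the 3 other scalings 2 rose and 2 to 3 fell, and Mdc1 missed the threshold without WT replicate 1 (adjusted p 0.0859) or PU1_KI replicate 3 (0.0604). Of 8 tested end joining genes 4 fell, Xrcc5 and Xrcc6 among them, and 2 rose in miR155_KO against WT. Nhej1 (XLF), a ligation cofactor, fell by 0.29 ± 0.09 (adjusted p 0.00725) and the nuclease gene Dclre1c rose by 0.31 ± 0.06 (adjusted p 9.78e-05); in PU1_KI against WT Dclre1c rose by 0.21 ± 0.06 (adjusted p 0.0108), which the 3 other scalings did not call (adjusted p 0.0854 to 0.135). Polm, a polymerase of end joining, averaged 6.41 ± 0.32 RPKM in miR155_KO, 9.24 ± 0.45 RPKM in PU1_KI and 5.77 ± 0.22 RPKM in WT, and rose in PU1_KI against WT by 0.64 ± 0.05 (adjusted p 6.22e-08). The kinase subunit Prkdc, which Ku recruits, was called in none of the 3 comparisons (adjusted p 0.132 to 0.694).

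Among 23 tested transcription factors of activation and switching 10 (43.5%) rose and 8 (34.8%) fell in miR155_KO against WT. In PU1_KI against WT 9 (39.1%) rose and 3 (13%) fell, or 8 and 4 under each of the 3 other scalings. Bcl6, a transcriptional repressor needed for the germinal centre programme, fell by 0.77 ± 0.06 in miR155_KO against WT (adjusted p 2.68e-09, limma), and Id2, an inhibitor of E proteins, by 0.82 ± 0.09 (adjusted p 2.10e-07). Both genes were also lower in PU1_KI against WT, called in each processing alternative. Bcl6 ranged there from -0.39 to -0.27 (adjusted p up to 0.00541, limma) and Id2 from -0.65 to -0.44 (adjusted p up to 0.00168). Relb, an NF-kappaB subunit, rose by 0.66 ± 0.07 in miR155_KO against WT (adjusted p 1.01e-07) and by 0.42 ± 0.07 in PU1_KI against WT (adjusted p 0.000126). The transcription factor Bach2, which holds back plasma cell differentiation, rose in PU1_KI against WT by 0.39 ± 0.06 (adjusted p 3.60e-05) and the NF-kappaB subunit Rel by 0.37 ± 0.06 (adjusted p 0.000146). Rel rose in miR155_KO against WT too, by 0.37 to 0.51 over the processing alternatives (adjusted p up to 0.000115, limma). Bach2 differed there by 0.07 to 0.12 and was called only with a replicate block in the fit (adjusted p 0.0410). Irf4, which binds DNA with Batf, averaged 60.1 ± 3.5 RPKM in miR155_KO, 49.5 ± 5.6 RPKM in PU1_KI and 37.9 ± 2.0 RPKM in WT; it rose by 0.66 ± 0.07 in miR155_KO against WT (adjusted p 2.35e-07, limma) and by 0.38 ± 0.07 in PU1_KI against WT (adjusted p 0.00066). Irf8, its relative, fell in miR155_KO against WT by 0.56 ± 0.08 (adjusted p 8.87e-06). Junb, a dimer partner of Batf, averaged 15.5 ± 5.0 RPKM in miR155_KO, 34.7 ± 10.3 RPKM in PU1_KI and 29.2 ± 14.1 RPKM in WT, and the libraries of the 3 genotypes overlapped. It was lower in miR155_KO than in PU1_KI by 1.14 ± 0.27 on the log2 scale (-1.35 to -0.95 over the alternatives, called in each, adjusted p 0.00138, limma). Against WT it was lower in miR155_KO (-0.83 ± 0.29, adjusted p 0.0187), but not called without WT replicate 2 or 3 or miR155_KO replicate 4 (adjusted p 0.0505 to 0.0884) or with no filter (0.0669).

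**Figure D4:**
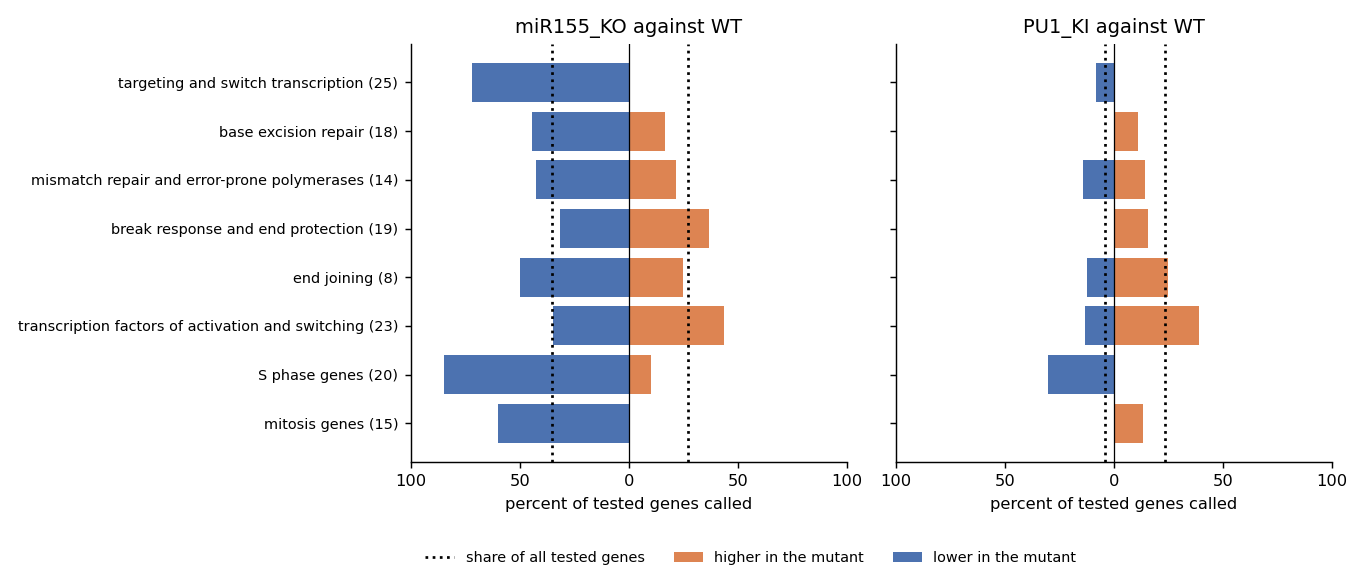
Percent of tested genes called lower (left bars) and higher (right bars) in each list, for miR155_KO against WT and PU1_KI against WT, with the number of tested genes in brackets; dotted lines mark the shares of all tested genes. In miR155_KO the lists of S phase and of targeting and switch transcription had the longest bars to the left.

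Genes of S phase and mitosis were mostly lower in miR155_KO than in WT: 85% and 60% of them were called lower, beside 35.3% of all tested genes. The summed level of 20 S phase genes was 394 ± 38.2 RPKM in miR155_KO (SD, n = 5), 536 ± 35.5 RPKM in PU1_KI (n = 5) and 566 ± 21.6 RPKM in WT (n = 4). Of these 17 fell and 2 rose in miR155_KO against WT, with the helicase subunit Mcm3 at -0.85 ± 0.07 (adjusted p 9.89e-09, limma), and 6 fell in PU1_KI against WT, or 13 to 14 under the 3 other scalings. The 15 mitosis genes summed to 303 ± 24.5 RPKM in miR155_KO, 360 ± 20.6 RPKM in PU1_KI and 354 ± 10.9 RPKM in WT, and 9 fell in miR155_KO against WT. In PU1_KI against WT 2 mitosis genes rose, Aurka and Aurkb, and none fell. Both missed the threshold under some alternatives (adjusted p up to 0.107 and 0.146, limma). The part of S phase and mitosis genes in the changes of the 8 factors was not tested.

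Over all 14 libraries, the 10 pairs among Ung, Exosc3, Apex1, Msh6 and Xrcc6 had a Pearson r of log2(RPKM + 0.5) of 0.81 (Ung with Msh6) to 0.96 (Exosc3 with Apex1). After the genotype means were removed these pairs had r of 0.17 (Ung with Msh6) to 0.85 (Exosc3 with Apex1), with Ung and Exosc3 at 0.57 and Ung and Xrcc6 at 0.53. Ung, Exosc3, Apex1, Msh6 and Xrcc6 all fell in miR155_KO against WT, so r over all 14 libraries includes that shared difference. The other pairs of factors had r of -0.58 (Xrcc5 with Trp53bp1) to 0.71 (Ung with Xrcc5) over all 14 libraries. After the genotype means were removed they had r of 0.06 (Batf with Msh6) to 0.80 (Msh6 with Trp53bp1). That range overlapped the range of the 10 pairs. Batf and Exosc3 had r of 0.16 over all 14 libraries and 0.41 after the genotype means were removed. The libraries share genotype, depth and scaling, so these values only describe the set. The tested genes most like each factor by the same measure over 14 libraries were Wdr4 for Ung (r 0.99), Rabep2 for Batf (0.97), 2210016F16Rik for Exosc3 (0.99), Txndc9 for Msh6 (0.98), Id2 for Xrcc5 (0.95), 2410091C18Rik for Xrcc6 (0.98), Rbm5 for Trp53bp1 (0.97) and Psme3 for Apex1 (0.99).

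Relative to the median of all tested genes (-0.13 in miR155_KO against PU1_KI, which median-of-ratios scaling moved to -0.03), the differences between miR155_KO and PU1_KI were -0.42 for Exosc3, -0.41 for Ung, -0.26 for Apex1, -0.23 for Batf, -0.15 for Xrcc6, -0.11 for Msh6, 0.00 for Xrcc5 and 0.14 for Trp53bp1. Genes on the other strand overlap Trp53bp1 (Tubgcp4), Exosc3 (Dcaf10), Apex1 (Tmem55b), Xrcc6 (Pppde2) and Msh6 (Fbxo11) in the deposited table, and no source used here says whether reads were counted by strand, so reads of these pairs may be mixed. In the table's build, NCBIM37, the genes lie at chr12:87027619-87050037 (Batf), chr4:45329485-45355604 (Exosc3), chr5:114580395-114589332 (Ung), chr14:51544643-51546814 (Apex1), chr17:88374390-88390223 (Msh6), chr2:121020574-121097143 (Trp53bp1), chr1:72353995-72441526 (Xrcc5) and chr15:81818265-81870515 (Xrcc6).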

How the data were processed

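The authors deposited 1 table of RPKM values, a column for each of 14 libraries of polyadenylated RNA. Per the submitters' processing notes its making involved Trim Galore, TopHat and NCBIM37; counter, annotation and strand setting are given neither there nor in the labels. The test used limma (version 3.58.1, R version 4.3.3) on log2(RPKM + 0.5) for the 9627 genes that reached 1 RPKM in 4 or more libraries, with 1 mean per genotype over all libraries, an intensity trend, two-sided, and Benjamini-Hochberg adjustment over all of them. Such fold changes understate low genes. Ratios were tested by exact permutation (scipy 1.17.1). Depth was read from low values that are whole multiples of 1 read: 73.2% to 82.0% of those checked lay within 0.01 reads of a whole number, so no count test was run. Scripts were tested on simulated data. The 8 factors and all lists were chosen with earlier results of these data known. List genes are named from the 4 called genes with the smallest adjusted p per list and comparison, not all of which are printed, plus partners of the factors, the S phase gene with the highest mean level and, per factor, the most similar gene. Some list genes, and 3 of 6 ratio tests whose p-values stay in the adjustment, are not reported here; such genes are left out of the list counts.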

Additional observations from a re-analysis of the deposited data

Results flagged for a closer look

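Among 27 groups of libraries looked at (9 quantities in 3 genotypes), 2 held a library set well apart from the rest of its genotype by Dixon's criterion, which chance gives in about 1 of 20. Ung was 9.47 RPKM in PU1_KI replicate 4, the highest of that genotype, and Apex1 was 41.9 RPKM in miR155_KO replicate 5, the highest of that genotype. These RPKM values were not rescaled. PU1_KI replicate 4 had the largest median-of-ratios size factor of all libraries (1.12), and miR155_KO replicate 5 the largest of its genotype (1.03). The part of library scaling in the 2 flags was not tested. The summed S phase level of miR155_KO replicate 5 was also the highest of its genotype, 462 RPKM. Without that library the fall of Apex1 in miR155_KO against WT was 0.50 on the log2 scale.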

How the results depend on the processing

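Alternatives were another pseudocount (0.1 or 1), another filter (5 RPKM or none), 3 other scalings, 2 genotypes per fit, no intensity trend, a replicate block and leaving out each library; list genes were added to these after seeing the data. Of 8 factors, the number called in PU1_KI against WT was 3 and became 5 (1 higher, 4 lower) with immunoglobulin genes left out. There Ung, Exosc3 and Apex1 fell by 0.23, 0.13 and 0.13. With median-of-ratios scaling and with quantile normalization too, Ung and Exosc3 were called lower and Trp53bp1 lost its call. Without 1 library the number called was 2 to 3, with 7 to 8 in miR155_KO against WT and 6 to 7 in miR155_KO against PU1_KI. Calls over all genes split 2279 higher and 388 lower in PU1_KI against WT, 1677 and 1497 with median-of-ratios scaling and 1520 and 1549 with quantile normalization; in miR155_KO against PU1_KI the splits were 1725 and 4467, 2737 and 3372, and 2831 and 3216. Leaving out a library gave 1966 to 3128 calls in PU1_KI against WT, 5553 to 6205 in miR155_KO against WT and 5755 to 6471 in miR155_KO against PU1_KI. Batf in miR155_KO against WT had an adjusted p of 0.0515 with no filter. Trp53bp1 was called higher in miR155_KO against PU1_KI under the 3 scalings (0.11 to 0.13). Xrcc5 had no value under the 5 RPKM filter. The Xrcc5 to Xrcc6 ratio without 1 library ranged from -0.62 to -0.54 in PU1_KI against WT and from -0.47 to -0.41 in miR155_KO against WT, with adjusted exact p of 0.0857 to 0.107. Before adjustment those designs cannot go below 0.0286 (4 against 4 libraries) or 0.0357 (3 against 5). The adjusted values depend also on the other tests of the 6. With the replicate block the ratio differences were -0.58 and -0.47, each with an adjusted exact p of 0.375, since 4 pairs cannot go below 0.125 unadjusted. Same-numbered libraries did not deviate together (r -0.39 to 0.47 over 13 pairs, 7 over 0.1), so the numbers were not taken as pairs; the replicate block gave 2908, 6326 and 6461 calls and changed no call of a factor.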
